A study of Mus musculus with 2 samples.

Results

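The 10 effector genes Cst7, Spp1, Lpl, Lgals3, Fabp5, Igf1, Gpnmb, Ch25h, Cd9 and Cd63 were followed in single microglia of mice lacking Arpc4, a subunit of the actin-nucleating Arp2/3 complex. They were chosen by name from the disease-associated microglia (DAM) program as the members that code for secreted or lysosomal proteins, for proteins of lipid handling or for tetraspanins, and they are 10 of the 32285 genes in the count tables. All 10 were found in the tables of all 8 mice, and all 10 passed the filter on low counts in microglia. Gpnmb passed it only through its counts in the mice lacking Arpc4.

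CD45+ brain cells came from 4 control mice (Arpc4fl/fl, without Cre) and 4 Arpc4ΔCx3cr1 littermates (Tg(Cx3cr1-Cre) Arpc4fl/fl, heterozygous for Cre), all C57BL/6J and 12 weeks old. Both groups thus carried the floxed Arpc4 alleles, and Cre was driven by the Cx3cr1 promoter, which acts in brain myeloid cells including CNS-associated macrophages (CAMs) as well as microglia. Cells were labelled with 1 oligonucleotide tag per mouse before the 8 mice were pooled into 1 library, which was read from the 3′ end of the transcripts. The methods describe 1 of the 4 Arpc4ΔCx3cr1 mice as female and left out of the study's own analysis, and the labels do not say which. Xist, a transcript of the inactive X chromosome, had 1384 CPM (UMIs of a gene scaled to a common total per mouse) in Arpc4ΔCx3cr1 mouse 1. The other 7 mice had 3.01 to 13.4 CPM. Values without mouse 1 are given for several genes, and the means of positive shares and coexpression include it.

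DAM are microglia that turn down their homeostatic genes and turn on genes for lysosomes, lipid metabolism and phagocytosis around amyloid plaques, dying neurons and damaged myelin, in part through the receptor TREM2 and its adaptor TYROBP. A similar program marks the microglia that occur in developing white matter. The genes followed here lie at the effector end of it: they act outside the cell as ligands, in the lysosome, or on fatty acids and cholesterol.

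Of the 19863 cells that passed the filters, 16808 were microglia-like, 7771 from control and 9037 from Arpc4ΔCx3cr1 mice. They gave 4173700 to 11594778 unique molecular identifiers (UMIs, each standing for 1 captured RNA molecule) per mouse. No barcode was shared between mice. In all 8 mice the most abundant tag was the one named in the labels, and it made up 76.6% (Arpc4ΔCx3cr1 mouse 2) to 97.8% (Arpc4ΔCx3cr1 mouse 1) of the tag UMIs of the mouse's barcodes. Arpc4 itself had 225 to 242 CPM in the control and 131 to 147 CPM in the Arpc4ΔCx3cr1 mice, scaled by the total alone. The 12 microglia markers summed to 24771 to 25132 CPM in control and to 9964 to 13845 CPM in Arpc4ΔCx3cr1 microglia-like cells, and all 12 were lower in every Arpc4ΔCx3cr1 mouse. Of the markers of other cells, those of granulocytes summed to 393 to 414 CPM in control and 427 to 611 CPM in Arpc4ΔCx3cr1 mice, those of dendritic cells to 12.5 to 15.4 and 18.3 to 23.8 CPM, those of natural killer cells to 1.14 to 2.88 and 3.36 to 5.17 CPM, and those of neurons, glia and vessels to 33.8 to 44.0 and 101 to 155 CPM. Those of B cells summed to 233 to 251 and 79.6 to 146 CPM. Of the 7 granulocyte and the 7 dendritic cell markers, 1 each was above and 1 each below all control mice in every Arpc4ΔCx3cr1 mouse. Of the 10 markers of neurons, glia and vessels and the 7 of proliferating cells, 3 each were above and 0 below. Over all genes tested, 22.0% lay above in this way. The markers of proliferating cells summed to 4.35 to 5.99 CPM in control and 5.78 to 10.5 CPM in Arpc4ΔCx3cr1 mice. CAM markers (185 to 202 and 80.1 to 228 CPM) and monocyte markers (11 to 15.1 and 10.4 to 13.4 CPM) overlapped between the genotypes. The part of these other cells in the results was not tested.

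To place the genes in the genome, promoter windows from 250 bases before to 50 bases after the RefSeq start sites (GRCm38.p6) were searched for motifs of factors known in macrophages, on both strands. Windows were found for 8 of the 10 genes, all but Lpl and Fabp5. The 3 windows with a match are shown, with the matching bases in capitals. Spp1 (chr5:104434861-104435160, plus strand) holds GAGGAAGT, a site of the type bound by PU.1, the lineage factor of macrophages and microglia. Gpnmb (chr6:49036268-49036567, plus strand) holds TGACTCA, the reverse complement of the AP-1 site TGAGTCA. Ch25h (chr19:34475099-34475398, minus strand) holds the cyclic AMP response element TGACGTCA.
Spp1: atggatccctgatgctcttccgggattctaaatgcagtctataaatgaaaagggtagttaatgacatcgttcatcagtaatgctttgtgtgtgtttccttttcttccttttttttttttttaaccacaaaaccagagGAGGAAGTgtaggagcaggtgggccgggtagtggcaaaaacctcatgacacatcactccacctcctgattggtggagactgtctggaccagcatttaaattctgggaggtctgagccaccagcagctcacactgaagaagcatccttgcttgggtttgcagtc
Gpnmb: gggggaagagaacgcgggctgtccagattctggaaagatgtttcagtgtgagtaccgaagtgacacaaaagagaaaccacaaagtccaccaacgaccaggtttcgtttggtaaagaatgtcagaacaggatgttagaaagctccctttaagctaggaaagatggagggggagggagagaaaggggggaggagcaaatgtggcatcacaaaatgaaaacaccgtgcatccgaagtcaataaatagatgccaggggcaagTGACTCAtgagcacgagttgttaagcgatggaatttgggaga
Ch25h: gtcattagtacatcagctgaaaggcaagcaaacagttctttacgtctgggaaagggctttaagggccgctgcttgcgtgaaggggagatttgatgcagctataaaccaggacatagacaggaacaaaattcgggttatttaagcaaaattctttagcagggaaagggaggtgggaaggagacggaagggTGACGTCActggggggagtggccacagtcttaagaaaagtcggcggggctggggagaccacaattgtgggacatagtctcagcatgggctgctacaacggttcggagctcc
Over all 32851 promoter windows, GAGGAAGT was found in 3.20%, TGAGTCA in 5.20% and TGACGTCA in 1.79%, against 1 of the 8 windows each. The sequence CACGTG, the core of the sites of the lysosomal regulators TFEB, TFE3 and MITF, was present in 7.15% of all windows and in none of these 8. The motifs share no bases with each other in these windows, and the windows of Lgals3, Igf1 and Cd63 start from a site 6109, 2846 and 8356 bases away from the start of the gene in the annotation used for counting, so other start sites were not searched. The motifs were chosen with the sequences in view, and a match describes the letters of the window only.

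To find out whether the effector genes change when microglia lose Arpc4, the UMIs of all microglia-like cells of a mouse were added up and the sums compared with edgeR's quasi-likelihood test. Mice are the replicates, and the p-values measure the spread between them. Levels are CPM scaled by the total of the sum and its TMM factor, which corrects for composition. All 10 genes were higher in Arpc4ΔCx3cr1 microglia (adjusted p under 0.05), whereas 23.1% of the 12659 genes tested were. In 9 of the 10 every Arpc4ΔCx3cr1 mouse lay above every control mouse, and Cd9 was the exception. Over all genes tested, 22.0% were separated in this way. The median log2 fold change of the 10 was 3.76, against -0.01 over all genes tested. Of the 10, 9 had more than doubled, as had 7.92% of all genes. Gpnmb passed the filter on low counts only through the Arpc4ΔCx3cr1 mice, so it adds no support to these counts.

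**Figure D1:**
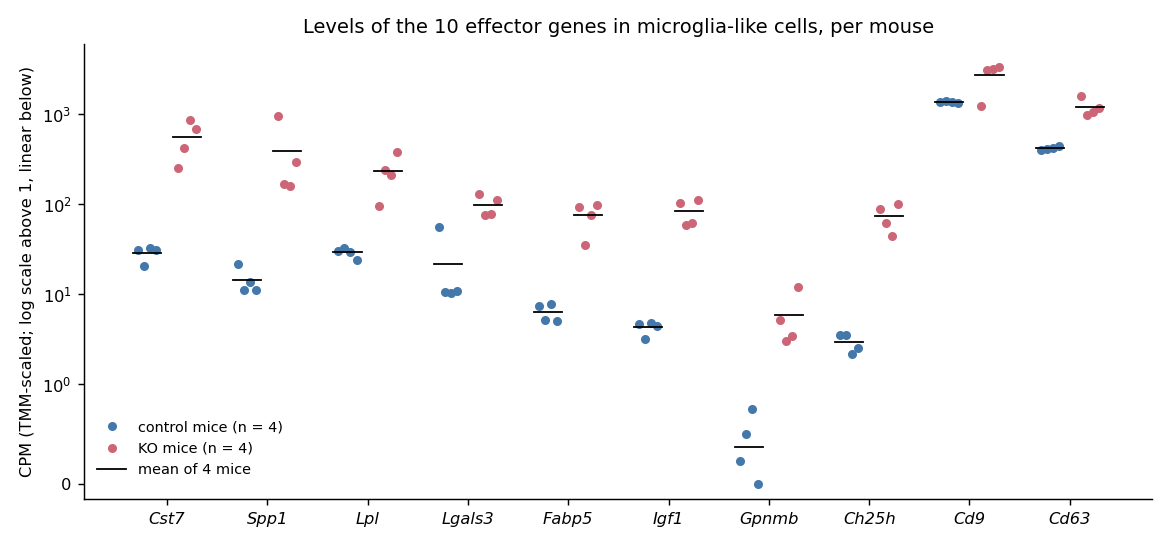
CPM of each gene in microglia-like cells (vertical axis, logarithmic above 1 and linear below), with 1 point per mouse, 4 control mice in blue and 4 Arpc4ΔCx3cr1 (KO) mice in red, and the mean of the 4 as a line. The groups are apart for 9 genes, and for Cd9 the Arpc4ΔCx3cr1 mouse at 1234 CPM lies below all control mice.

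Among the genes for secreted proteins, Spp1 codes for osteopontin, a matrix protein that binds integrins and CD44 and that microglia release in white matter and near plaques. Its level was 21.8, 11.1, 13.7 and 11.2 CPM in the control mice and 951, 168, 157 and 291 CPM in the Arpc4ΔCx3cr1 mice. The groups did not overlap, and mouse 1, the one with high Xist, stood far above the other 3. Spp1 (ENSMUSG00000029304, chromosome 5, 104435118 to 104441050 in GRCm38, the build of all positions given here, which Gm42793 overlaps on the same strand) rose 28.5-fold (log2 fold change 4.83, SE 0.63, edgeR adjusted p = 9.61e-05). Without mouse 1 the log2 fold change was 3.94 (adjusted p = 4.64e-09). Of the 8 genes for receptors of osteopontin, 3 were higher and 3 lower, next to 23.1% and 23.5% of all genes, with a median log2 fold change of -0.05. Cd44, the hyaluronan receptor, had 2.17 ± 0.692 CPM (SD, n = 4) in control and 28.2 ± 5.79 CPM (SD, n = 4) in Arpc4ΔCx3cr1 mice (log2 fold change 3.75, SE 0.22), and Itga4, the alpha subunit of VLA-4, rose by 2.74 (SE 0.26). The integrin genes Itgb3 and Itga9 fell, by 1.09 and 0.72 on the log2 scale (SE 0.11 and 0.07).

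Igf1, the growth factor that supports oligodendrocytes and myelination, had 4.68, 3.19, 4.74 and 4.45 CPM in the control and 102, 58.7, 60.8 and 112 CPM in the Arpc4ΔCx3cr1 mice. No control mouse came near the lowest Arpc4ΔCx3cr1 mouse. Igf1 (ENSMUSG00000020053, chromosome 10, 87858265 to 87937042, with Igf1os on the other strand) rose 19.8-fold (log2 fold change 4.31, SE 0.27, edgeR adjusted p = 5.14e-07). Over every cell that passed the filters, CAMs included, the log2 fold change was 2.77. Of the 10 further genes of the IGF axis, 5 were expressed highly enough to be tested, of which 2 were higher and 0 lower, next to 23.1% and 23.5% of all genes. These were Igf2r and Irs2. Igf2r, a scavenger receptor for IGF2 and sorting receptor of lysosomal enzymes, had 0.384 ± 0.252 and 3.76 ± 0.328 CPM (SD, n = 4 each, log2 fold change 3.45, SE 0.33). Its level was at most 0.702 CPM in any control mouse. Igf2r thus passed the filter on low counts only through the Arpc4ΔCx3cr1 mice and adds no support to this count. Irs2, an adaptor of the IGF1 receptor, rose by 0.72 (SE 0.11). The receptor gene Igf1r itself had 120 ± 8.31 CPM in control and 105 ± 8.78 CPM in Arpc4ΔCx3cr1 mice (SD, n = 4 each, edgeR adjusted p = 0.0557).

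Lgals3 codes for galectin-3, a lectin that is secreted and also gathers at damaged lysosomes. It had 54.8, 10.5, 10.3 and 10.7 CPM in the control and 129, 75.2, 78.3 and 112 CPM in the Arpc4ΔCx3cr1 mice. Control mouse 1 was the high one of its group, yet only 0.831% of its cells held a Lgals3 UMI, within the 0.759 to 1.36% of the other control mice. The rise was 5.31-fold (ENSMUSG00000050335, chromosome 14, 47367751 to 47386160, log2 fold change 2.41, SE 0.48, edgeR adjusted p = 0.00174). It came to 3.23 without control mouse 1 and to 3.48 without the cells above the 95th percentile of UMIs of their mouse. Over every cell that passed the filters, monocytes and granulocytes included, the log2 fold change was 1.17 (adjusted p = 0.0577). Of the other galectin genes and Lgals3bp, the gene of a secreted galectin ligand, 1 of 5 was higher and 2 were lower, next to 23.1% and 23.5% of all genes. Lgals3bp rose from 76.1 ± 7.22 to 420 ± 63.5 CPM (SD, n = 4 each, log2 fold change 2.46, SE 0.11), Lgals8 fell by 0.39 (SE 0.06), and Lgals4 fell by 1.67 (SE 0.40) from 1.23 ± 0.280 to 0.352 ± 0.223 CPM.

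Among the genes for lysosomal proteins, Cst7 codes for cystatin F, an inhibitor of cysteine cathepsins that acts inside endosomes and lysosomes. Its level was 30.7, 20.6, 32.4 and 30.7 CPM in the control and 250, 417, 861 and 685 CPM in the Arpc4ΔCx3cr1 mice. Mouse 1, highest for Spp1, was the lowest of its group for Cst7. Cst7 (ENSMUSG00000068129, chromosome 2, 150570415 to 150578944) rose 19.4-fold (log2 fold change 4.28, SE 0.36, edgeR adjusted p = 4.52e-06). Of 7 other cystatins and proteases tested, 5 were higher and 2 lower, next to 23.1% and 23.5% of all genes. The cathepsin gene Ctsh and the cytosolic cystatin gene Cstb rose by 0.79 and 1.00 (SE 0.06 and 0.09). Cst3, the gene of the abundant cystatin C, fell from 48722 ± 1220 to 23810 ± 5268 CPM (SD, n = 4 each, log2 fold change -1.03, SE 0.14), and the asparagine endopeptidase gene Lgmn, whose product cystatin C inhibits, fell by 0.80 (SE 0.08). The cystatin genes thus moved apart, with Cst7 and Cstb up and Cst3 down.

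Gpnmb codes for a membrane glycoprotein of lysosomes and phagosomes and is a known target of the MiT/TFE factors. It was the rarest of the 10, with 13 UMIs in all control and 249 in all Arpc4ΔCx3cr1 microglia-like cells. Per mouse these came to 0.234, 0.498, 0.754 and 0 CPM in control and to 5.15, 2.98, 3.43 and 12 CPM in Arpc4ΔCx3cr1 mice. The 0 of control mouse 4 allows up to 0.318 CPM (3 counts of 9424644 UMIs). Gpnmb (ENSMUSG00000029816, chromosome 6, 49036546 to 49070929) was higher in Arpc4ΔCx3cr1 microglia (log2 fold change 3.89, SE 0.68, edgeR adjusted p = 8.22e-04), with 4.51 without control mouse 3 and 3.27 without Arpc4ΔCx3cr1 mouse 4. Of the 4 MiT/TFE genes, Mitf rose from 261 ± 11 to 451 ± 99.5 CPM (SD, n = 4 each, log2 fold change 0.79, SE 0.13), the macrophage member Tfec rose by 1.17 (SE 0.33), and Tfe3 fell by 0.39 (SE 0.08). The rise of Tfec missed the threshold without control mouse 3 (1.00, edgeR adjusted p = 0.0505) and over every cell that passed the filters (0.45, adjusted p = 0.122).

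Among the genes of lipid handling, Lpl codes for lipoprotein lipase, which frees fatty acids from lipoproteins. It had 30.2, 32.6, 29.6 and 24.0 CPM in the control and 95.7, 238, 209 and 376 CPM in the Arpc4ΔCx3cr1 mice. The control mice lay close together and the Arpc4ΔCx3cr1 mice were spread widely, with mouse 1 lowest. The rise was 7.92-fold (ENSMUSG00000015568, chromosome 8, 68880491 to 68907448, log2 fold change 2.99, SE 0.34, edgeR adjusted p = 4.06e-05). Of 9 genes tested for partners of the lipase and for lipid uptake, 5 were higher and 2 lower, next to 23.1% and 23.5% of all genes, with a median log2 fold change of 0.24. The scavenger receptor gene Cd36 had 1.83 ± 0.784 and 20.4 ± 5.98 CPM (SD, n = 4 each, log2 fold change 3.53, SE 0.32). Lrp1, a receptor for remnant lipoproteins, fell by 0.80 (SE 0.08), and Pnpla2, the gene of the lipase that opens lipid droplets, fell by 0.30 (SE 0.08).

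Fabp5, which carries fatty acids in the cytosol and hands them to nuclear receptors of the PPAR family, had 7.26, 5.08, 7.65 and 4.95 CPM in the control and 93.5, 35.3, 74.6 and 96.4 CPM in the Arpc4ΔCx3cr1 mice. The lowest Arpc4ΔCx3cr1 mouse, mouse 2, still lay above every control mouse. The rise was 12.3-fold (ENSMUSG00000027533, chromosome 3, 10012548 to 10016607, log2 fold change 3.62, SE 0.32, edgeR adjusted p = 6.53e-06), and over every cell that passed the filters the log2 fold change was 2.68. Of 4 further binding protein and PPAR genes tested, 3 were higher and 1 lower, next to 23.1% and 23.5% of all genes. Pparg had at most 0.538 CPM in control mice 1 to 3. It passed the filter on low counts only through the Arpc4ΔCx3cr1 mice and adds no support to this count. Pparg and Fabp3 rose by 2.88 and 2.52 (SE 0.35 and 0.41) from levels near 1 CPM (0.756 ± 0.578 and 1.13 ± 0.350 CPM, SD, n = 4 each), and Rxra, the partner of the PPARs on DNA, fell by 0.79 (SE 0.12).

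Ch25h makes 25-hydroxycholesterol, an oxysterol that restrains cholesterol synthesis and is the precursor of a ligand of the receptor GPR183. It had 3.51, 3.49, 2.15 and 2.53 CPM in the control and 87.9, 61.2, 43.7 and 100 CPM in the Arpc4ΔCx3cr1 mice. The groups lay far apart for this gene as well. The rise was 25.6-fold (ENSMUSG00000050370, chromosome 19, 34473778 to 34475164, with Gm26902 on the other strand, log2 fold change 4.68, SE 0.31, edgeR adjusted p = 7.29e-07). Of 8 genes tested of the oxysterol pathway, 3 were higher and 3 lower (2 and 2 with DESeq2), next to 23.1% and 23.5% of all genes. Srebf2, the regulator of cholesterol synthesis, rose from 16.9 ± 1.15 to 42.6 ± 5.44 CPM (SD, n = 4 each, log2 fold change 1.34, SE 0.10), and its retention partner Insig1 rose by 1.19 (SE 0.14). The receptor gene Gpr183 fell by 0.49 (SE 0.11) and the cholesterol exporter gene Abcg1 by 0.44 (SE 0.10).

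Cd9 and Cd63 code for tetraspanins, membrane organizers of the cell surface and, for CD63, of late endosomes and exosomes. Cd9 had 1369, 1408, 1349 and 1330 CPM in the control and 1234, 3049, 3175 and 3307 CPM in the Arpc4ΔCx3cr1 mice. Mouse 1 lay below every control mouse and the other 3 far above them. With all mice Cd9 (ENSMUSG00000030342, chromosome 6, 125460266 to 125494791, with Gm28809 and Gm26728 on the other strand) had a log2 fold change of 0.98 (SE 0.24, edgeR adjusted p = 0.00675), and without mouse 1 it was 1.22 (adjusted p = 9.46e-11). Cd63 behaved otherwise, with 395, 408, 415 and 438 CPM in the control and 1566, 979, 1058 and 1171 CPM in the Arpc4ΔCx3cr1 mice, and mouse 1 highest. Its rise was 2.88-fold (ENSMUSG00000025351, chromosome 10, 128900989 to 128912822, log2 fold change 1.53, SE 0.13, adjusted p = 3.76e-06). Of the other tetraspanin genes 1 of 9 was higher and 6 were lower, next to 23.1% and 23.5% of all genes, with a median log2 fold change of -0.39. Among the lower ones were Tspan4 (fell by 0.88, SE 0.09) and Cd151 (fell by 0.68, SE 0.07). Tspan32 alone of the 9 rose, by 1.15 (SE 0.08).

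Of 23 further DAM genes tested, 20 were higher and 0 lower in Arpc4ΔCx3cr1 microglia, next to 23.1% and 23.5% of all genes, with a median log2 fold change of 1.46. Axl, a receptor for apoptotic cells, rose from 18.7 ± 3.23 to 261 ± 23.6 CPM (SD, n = 4 each, log2 fold change 3.82, SE 0.12), and Itgax, the gene of CD11c, rose by 3.80 (SE 0.32). Trem2 was among those that did not pass, with 2071 ± 28.1 and 1983 ± 430 CPM (SD, n = 4 each, log2 fold change -0.06, SE 0.13). All 14 homeostatic genes were lower (median log2 fold change -0.99), with P2ry12 at 2633 ± 94.2 and 718 ± 157 CPM. Trem2 and Igf1r were named after their values were seen. Scaled by the total alone, the median log2 fold change of all genes moved from -0.01 to -0.12 and the share of higher among the called genes from 49.6 to 34.1%, and all 10 effector genes stayed past the threshold in the same direction. Of the genes that tissue dissociation induces, 8 of 11 were higher (7 with DESeq2) and 1 lower, next to 23.1% and 23.5% of all genes. Those higher were led by the heat shock genes Hspa1a (0.302 ± 0.248 and 7.11 ± 7.69 CPM) and Hspa1b (0.316 ± 0.115 and 3.44 ± 3.46 CPM). Hspa1a, Hspa1b and Fos stayed at or below 0.538 CPM in every control mouse. They passed the filter on low counts only through the Arpc4ΔCx3cr1 mice, so they add no support to this count. The part of the dissociation genes in the rise of the effector genes was not tested. The lower one was Jun (log2 fold change -0.71, SE 0.22, edgeR adjusted p = 0.0217), and its call was lost without control mouse 2, control mouse 4, Arpc4ΔCx3cr1 mouse 2 or Arpc4ΔCx3cr1 mouse 4 (adjusted p = 0.0519 to 0.0578).

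The 8 mice shared 1 pool and so 1 background of free RNA, which was read from 1769098 empty droplets. The control levels were between 4.76% (Spp1) and 48.0% (Cd9) of the level of the same gene in these droplets, and the Arpc4ΔCx3cr1 levels between 87.8% (Cd9) and 247% (Igf1). With 10% of each sum taken as free RNA and subtracted, Cst7, Spp1, Fabp5 and Ch25h were at 0 in all 4 control mice and above 0 in all 4 Arpc4ΔCx3cr1 mice. With 20%, a share chosen after seeing the data, Igf1 was also at 0 in all 4 control mice, and Lgals3 and Gpnmb were above 0 in 1 control mouse each. The control levels of these genes therefore cannot be told apart from free RNA at those shares, and their folds are folds over the level measured.

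A sum over cells cannot tell more positive cells from more RNA per cell, so the share of cells with at least 1 UMI of each gene was counted after every cell had been thinned to 2000 UMIs, which left out 287 control and 329 Arpc4ΔCx3cr1 microglia-like cells below that depth. For 9 of the 10 genes the share was higher in every Arpc4ΔCx3cr1 than in every control mouse, as it was for 14.7% of the genes tested. Cst7 was found in 28.2, 35.6, 60.7 and 50.0% of the cells of the Arpc4ΔCx3cr1 mice and in 5.19, 3.27, 3.79 and 4.34% of those of the control mice. Lpl went from 4.02 ± 0.837% (SD, n = 4) to 23.6 ± 7.98% (SD, n = 4), Spp1 from 2.36 ± 0.461 to 18.1 ± 8.80%, Igf1 from 0.592 ± 0.171 to 10.6 ± 3.05%, Lgals3 from 1.04 ± 0.293 to 10.0 ± 2.98%, Ch25h from 0.377 ± 0.192 to 9.61 ± 2.95% and Fabp5 from 1.01 ± 0.130 to 8.25 ± 2.55%. At this depth each of these 6 genes was detected in a minority of cells, and cells without a UMI may still express it. Gpnmb was found in 0 to 0.142% of the cells of the control mice, where the 0 of 2212 cells in control mouse 4 allows up to 0.136%, and in 0.302 to 0.950% of those of the Arpc4ΔCx3cr1 mice.

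The tetraspanins were common in both groups. Cd63 went from 49.2 ± 1.60 to 82.8 ± 6.20% of cells (SD, n = 4 each). The shares of Cd9 overlapped, with 88.6 to 90.3% in control and 76.8, 94.3, 96.5 and 95.6% in Arpc4ΔCx3cr1 mice, and most cells of both groups held it. Without thinning, the mean share of Cst7 was 7.66% in control and 58.1% in Arpc4ΔCx3cr1 mice, that of Spp1 4.39 and 26.7%, and that of Igf1 1.05 and 17.9%.

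**Figure D2:**
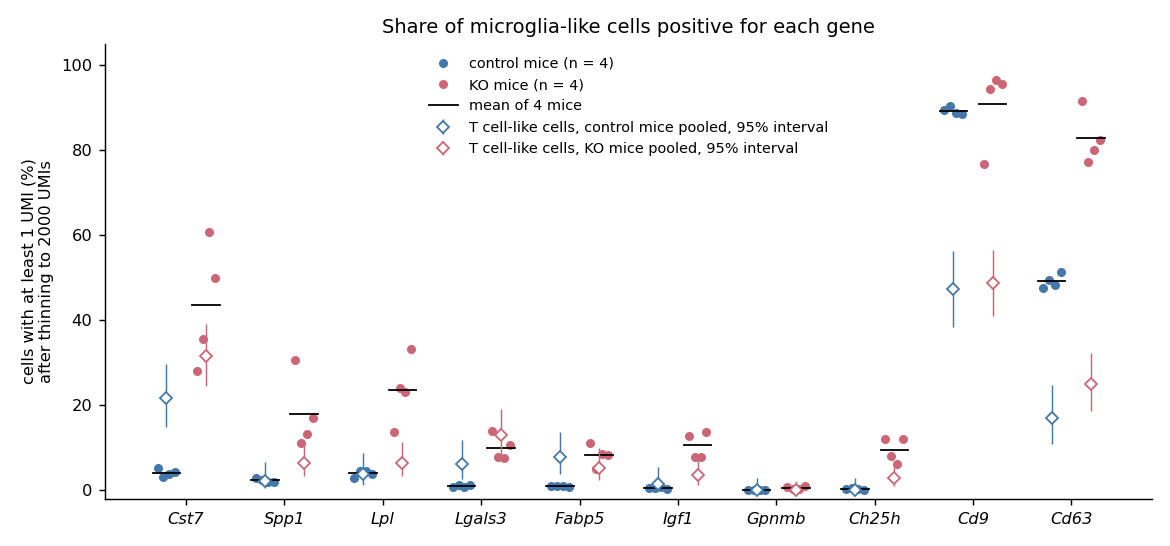
Share of cells with at least 1 UMI of each gene after thinning to 2000 UMIs (vertical axis, percent), with filled points for microglia-like cells of each mouse, lines for the mean of 4 mice, and open diamonds with exact 95% binomial intervals for the T cell-like cells of all control or all Arpc4ΔCx3cr1 (KO) mice. The control microglia lie within or below the interval of the T cell-like cells for Spp1, Lpl and Igf1, and the mean of the Arpc4ΔCx3cr1 microglia lies above it for Spp1, Lpl, Igf1 and Ch25h.

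T cell-like cells, thinned in the same way, served as a measure of background for genes that lymphocytes should lack (median depth before thinning 4979 UMIs in control and 4057 in Arpc4ΔCx3cr1 T cell-like cells, 3833 and 4278 in microglia-like cells). Spp1 was found in 3 of 129 control T cell-like cells (2.33%, exact 95% interval 0.482 to 6.65%) and Lpl in 5 of 129 (3.88%, 1.27 to 8.81%). The mean shares of both genes in control microglia lay within these intervals, which are too wide to show equal shares. Scaled by the total alone, Lpl had 25.1 to 33.9 CPM in control microglia and 6.54 to 19.6 CPM in control T cell-like cells. Lpl also stayed above 0 in all 4 control mice with 10 or 20% of free RNA subtracted. Spp1 had 11.5 to 22.3 and 0 to 17.2 CPM. Igf1 was found in 1.55% of the control T cell-like cells, and control microglia lay within or below its interval. In Arpc4ΔCx3cr1 mice the background was 6.55% for Spp1 (3.31 to 11.4%), 6.55% for Lpl (3.31 to 11.4%), 3.57% for Igf1 (1.32 to 7.61%) and 2.98% for Ch25h (0.973 to 6.81%), below the mean share of the microglia in each case. Activated lymphocytes are known to express Lgals3 and Fabp5, so T cell-like cells do not measure the background of these genes. They held Lgals3 at 6.20% in control and 13.1% (8.39 to 19.2%) in Arpc4ΔCx3cr1 mice, and Fabp5 at 7.75 and 5.36% (2.48 to 9.93%). Cst7 is expressed by cytotoxic lymphocytes, and T cell-like cells held it at 21.7% in control and 31.5% in Arpc4ΔCx3cr1 mice, so B cell-like cells were taken for this gene, with 0 of 24 cells in control (up to 14.2%) and 8 of 32 (25.0%, 11.5 to 43.4%) in Arpc4ΔCx3cr1 mice. The shares of Cst7 in microglia of Arpc4ΔCx3cr1 mice 1 and 2 lay inside that interval and those of mice 3 and 4 above it. The intervals cover counting error only.

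How the effector genes combine within single cells was described from the number of them detected per thinned cell. The mean number was 1.51 to 1.54 in control and 2.72 to 3.24 in Arpc4ΔCx3cr1 mice. In control mice these were mostly Cd9 and Cd63. If the 10 genes were detected independently of each other, the variance of this number would follow from the 10 shares alone. The observed variance was 1.14 to 1.20 times that value in the control mice and 1.42 to 1.68 times in the Arpc4ΔCx3cr1 mice. At least 6 of the genes were detected in 3.16 to 6.52% of the Arpc4ΔCx3cr1 cells, where independence gives 0.501 to 2.33%, and none of them in 0.560 to 0.897%, where it gives 0.133 to 0.488%. At least 4 were detected in 27.9, 22.5, 29.8 and 37.9% of the cells of the Arpc4ΔCx3cr1 mice, where independence gives 28.1, 20.3, 30.2 and 38.7%. The genes thus gathered in some cells and were missing from others more than their shares alone would give, at the ends of the distribution. In control mice at most 0.312% of cells held 6 or more. This comparison of variances was not made for other sets of genes, so whether the gathering is particular to the effector genes was not tested. With 1000 UMIs per cell the variance was on average 1.40 times the expected one in Arpc4ΔCx3cr1 mice, against 1.55 with 2000.

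**Figure D3:**
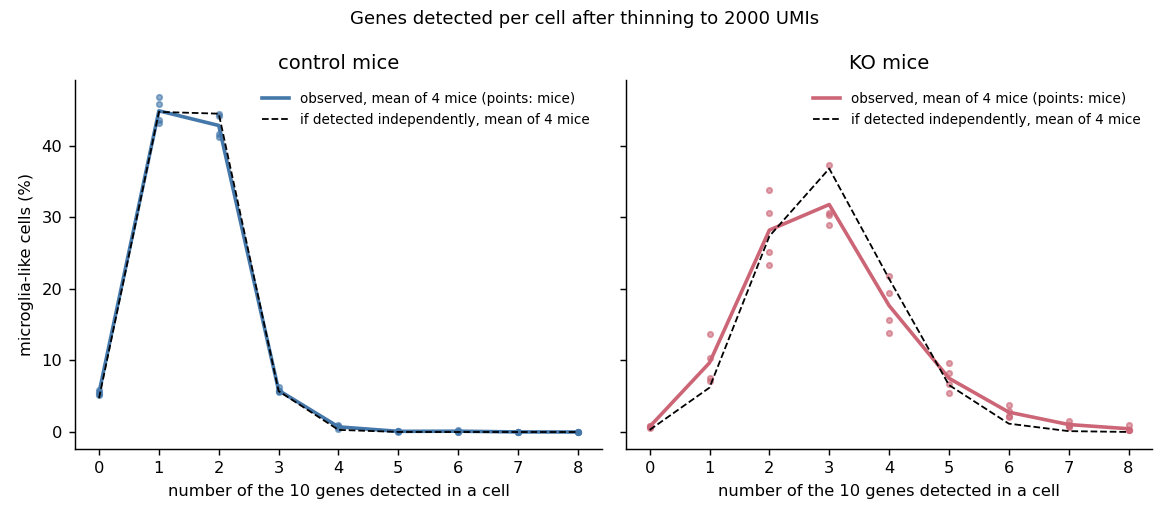
Number of the 10 genes detected in a microglia-like cell after thinning to 2000 UMIs (horizontal axis) against the percent of cells (vertical axis), for control mice on the left and Arpc4ΔCx3cr1 (KO) mice on the right. Points are single mice, solid lines the mean of 4 mice, and dashed lines the mean expected if genes were detected independently. The solid line for Arpc4ΔCx3cr1 mice is flatter than the dashed one and lies above it from 5 genes on.

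Of the 45 pairs of genes, 34 were detected together more often than their shares give in every Arpc4ΔCx3cr1 mouse. Other pairs of genes with similar shares were not counted, so whether this excess is particular to the effector genes was not tested. The 45 pairs did not behave alike. Lgals3 and Igf1 were detected together in 248 cells, 2.66 ± 0.25 times the expected number (SD, n = 4 mice), Lgals3 and Fabp5 2.22 ± 0.56 times, and Igf1 and Ch25h 2.15 ± 0.64 times. Spp1 and Lpl were together 1.50 ± 0.18 times as often, and Cst7 and Fabp5 1.47 ± 0.13 times. Cst7 kept to the expected number with Lgals3 (0.96 ± 0.13, range over mice 0.78 to 1.09) and with Igf1 (1.02 ± 0.07, range 0.95 to 1.12). Genes of high share, such as Cd9 and Cd63 (1.00 in every Arpc4ΔCx3cr1 mouse), cannot depart far from 1. In control mice most pairs rest on few cells, for example 4 cells for Lgals3 with Igf1.

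The genes most like each effector gene across the 9037 Arpc4ΔCx3cr1 microglia-like cells, by the Pearson correlation of log-normalized counts averaged over the 4 mice, were sought among 8373 genes. These correlations are over cells of the same 4 mice and share their depth, so they describe the cells and carry no p. Cst7 went most closely with the protease genes Ctsd (r = 0.43, range over mice 0.34 to 0.51) and Ctsl (0.39) and with Tyrobp (0.38), the gene of the TREM2 adaptor. Spp1 had Lpl (0.21), the fibronectin gene Fn1 (0.20) and Cst7 (0.19) as its nearest, and Lpl had Cd9 (0.30), Il4i1 (0.27) and Myo1e (0.27). Lgals3 went with Fth1, the ferritin heavy chain gene (0.34), with Igf1 (0.31) and with Lilrb4a (0.30), and Igf1 in turn with Lgals3 (0.31), Ms4a7 (0.23) and Lilrb4a (0.22). Fabp5 was nearest to Cst7 (0.23), Mif (0.20) and Igf1 (0.20), and Gpnmb to Fabp5 (0.19), Lgals3 (0.16) and Igf1 (0.13). Ch25h stood with the chemokine genes Ccl4 (0.31) and Ccl3 (0.27) and with Lilrb4a (0.23). Cd9 went with Ctsl (0.46), with Cd81, another tetraspanin gene (0.45), and with Ctsd (0.42), and Cd63 with the ferritin genes Ftl1 (0.38) and Fth1 (0.35) and with Ctsz (0.33).

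To compare the effector genes between cells with and without Cst7 at the level of mice, the thinned cells of each mouse were split by whether they held a Cst7 UMI, and both sums of a mouse entered 1 fit with the mouse as a block. Cells with Cst7 numbered 298 of 7484 in control and 3845 of 8708 in Arpc4ΔCx3cr1 mice, and cells without a UMI may still express it. Empty droplets held Cst7 at 435 CPM, so a UMI may also be free RNA, and its part in this split was not tested. Within Arpc4ΔCx3cr1 mice, 6 of the other 9 genes were higher in cells with Cst7 and 0 were lower, while 5.55% of the 11586 genes tested were higher and 3.68% lower. Fabp5 changed most, with 151, 57.5, 94.0 and 127 CPM in cells with and 59.5, 22.1, 27.1 and 32.0 CPM in cells without Cst7. It was higher in all 4 mice (log2 fold change 1.61, SE 0.10, edgeR adjusted p = 1.34e-53). Spp1 had 1623, 263, 154 and 342 CPM in cells with and 667, 77.1, 113 and 150 CPM in cells without Cst7 (log2 fold change 1.22, SE 0.06). Lpl (0.80, SE 0.06), Cd9 (0.54, SE 0.04) and Cd63 (0.36, SE 0.04) were also higher in 4 of 4 mice. Scaled by the total alone, the same 6 genes passed, and the share of higher among all called genes went from 60.1 to 35.1%.

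Ch25h was higher by 0.34 (SE 0.10, edgeR adjusted p = 0.00819), and this call was lost without Arpc4ΔCx3cr1 mouse 2 (0.25, adjusted p = 0.204), without mouse 4 (0.28, adjusted p = 0.224), with 1000 UMIs per cell (0.34, adjusted p = 0.211) and without thinning (0.08, adjusted p = 0.661). Igf1 and Lgals3 did not differ past the threshold. Igf1 had 134, 61.8, 55.3 and 105 CPM in cells with and 92.0, 60.1, 68.9 and 103 CPM in cells without Cst7 (log2 fold change 0.11, SE 0.09, adjusted p = 0.594), and Lgals3 had 94.8 ± 29.3 and 106 ± 31.7 CPM (SD, n = 4 mice each, log2 fold change -0.16, SE 0.08, adjusted p = 0.263). Gpnmb, with 50 UMIs in cells with Cst7, had a log2 fold change of 0.68 (SE 0.36, adjusted p = 0.281).

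Over all genes tested within Arpc4ΔCx3cr1 mice, 5.55% were higher in cells with Cst7 and 3.68% lower. Of the 23 further DAM genes, 19 were higher in Arpc4ΔCx3cr1 cells with Cst7, among them Itgax (1.17, SE 0.08), Csf1 (0.88, SE 0.07), Ctsd (0.67, SE 0.04) and Trem2 (0.56, SE 0.04), and 2 were lower. Apoe, the apolipoprotein gene, was one of those 2, at 17032 ± 11285 CPM with and 20953 ± 8295 CPM without Cst7 (SD, n = 4 mice each, higher in 1 of 4 mice, log2 fold change -0.41, SE 0.04), and Lyz2 the other (-0.14, SE 0.04). Of the 14 homeostatic genes, 6 were higher, such as Cst3 (0.28, SE 0.04), and 0 lower, although all 14 were lower in Arpc4ΔCx3cr1 than in control microglia. P2ry12 had 689 ± 143 and 730 ± 186 CPM (edgeR adjusted p = 0.372). The named genes of this split other than the effector genes were picked after their values were seen. Of the dissociation genes 0 were higher and 3 lower, with Jun at 72.8 ± 36.9 and 115 ± 38.1 CPM. Scaled by the total alone, 18 of the further DAM genes were higher and 2 lower, and 5 of the homeostatic genes were higher and 1 lower.

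**Figure D4:**
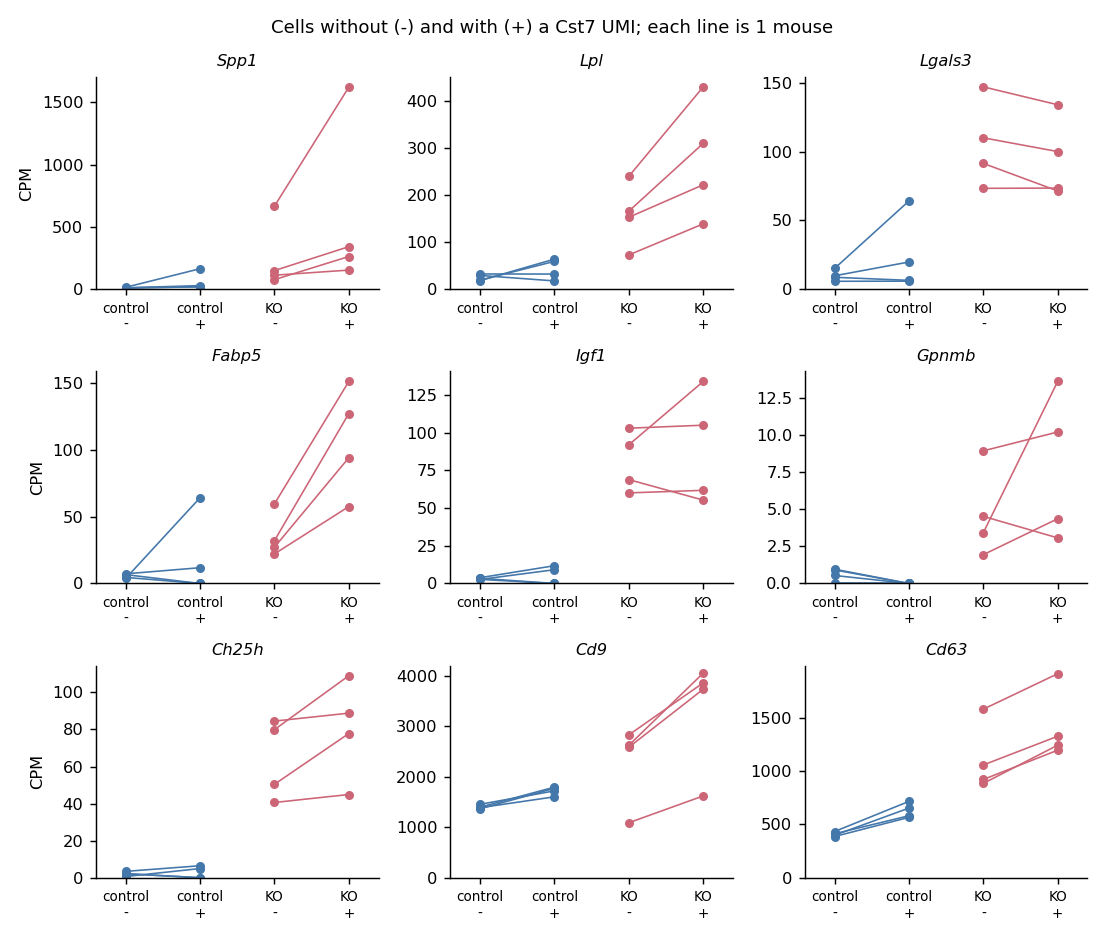
CPM of the other 9 genes in microglia-like cells without (-) and with (+) a Cst7 UMI after thinning to 2000 UMIs, with 1 line per mouse, control mice in blue and Arpc4ΔCx3cr1 (KO) mice in red, each panel on its own linear axis from 0. All 4 red lines rise for Spp1, Lpl, Fabp5, Cd9 and Cd63, whereas those of Igf1 and Lgals3 go in different directions between mice.

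Within control mice the cells with Cst7 were few, 50 to 96 per mouse, and 3 of the 9 genes were higher in them, where 0.716% of all genes were higher and 0.475% lower (60.1% of the called genes higher, and 80.2% when scaled by the total alone). Cd63 had 567, 582, 654 and 717 CPM with and 387, 413, 399 and 434 CPM without Cst7 (log2 fold change 0.64, SE 0.09, edgeR adjusted p = 9.46e-11). Cd9 had 1721 ± 85.5 and 1401 ± 37.8 CPM (0.30, SE 0.06). Spp1 had 165, 19.4, 29.4 and 19.8 CPM with and 15.7, 11.7, 11.6 and 10.0 CPM without Cst7 (1.96, SE 0.33), and without control mouse 1 it was no longer past the threshold (1.04, adjusted p = 0.530). With 1000 UMIs per cell 0 of the 9 genes passed, and without thinning 7. The effect of Cst7 detection differed between the genotypes for 1 of the 9 genes, Cd9 (0.25 higher in Arpc4ΔCx3cr1 mice, SE 0.07, adjusted p = 0.0305), with 0.570% of all genes higher and 0.518% lower (52.4% of the called genes higher, and 23.3% when scaled by the total alone). This call was lost when any 1 of 6 of the 8 mice was left out, when sums were scaled by the total alone (0.13, adjusted p = 0.565) and without thinning (0.14, adjusted p = 0.272). In these fits edgeR estimated 1 spread common to all genes, so the p-values rest on that. With edgeR's newer quasi-likelihood method, tried after seeing the data, the 6 genes within Arpc4ΔCx3cr1 mice stayed past the threshold (Fabp5 adjusted p = 1.41e-21, Ch25h adjusted p = 0.0127).

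When the microglia-like cells were clustered without the effector genes, 11 clusters were found. Clusters 1, 2, 3 and 7 held 1.86 to 3.57% Arpc4ΔCx3cr1 cells and the other 7 held 76.8 to 99.7%. Levels in clusters are CPM scaled by the total alone and describe the cells, with no test of a cluster against the rest. Cluster 9, led by Ctnna3 and the chemokine genes Ccl4 and Ccl3, had the highest mean of 8 of the 10 genes in Arpc4ΔCx3cr1 cells. There Spp1 stood at 2671 ± 3403 CPM (SD, n = 4 mice, 834 to 7773), Lpl at 943 ± 286, Lgals3 at 496 ± 145, Fabp5 at 330 ± 171 and Igf1 at 299 ± 133 CPM. Cluster 10, led by H2-Aa and Wfdc17 beside Cst7 itself and with a median of 2593.5 UMIs per cell, was highest for Cst7 (1219 ± 727 CPM) and Cd63 (2000 ± 421 CPM). Spread was wide in both clusters, and neighbouring clusters overlapped between mice for the genes named here other than Lpl. Lpl had 523 to 1160 CPM in cluster 9 and at most 315 CPM in cluster 10, the next highest.

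Cluster 6, led by the hemoglobin genes and Ms4a7, set the genes apart from each other. It had the lowest Cst7 level of the clusters of Arpc4ΔCx3cr1 cells (73.9 ± 18.5 CPM, against 559 ± 132 in the largest cluster 0), yet it came second for Igf1 (197 ± 56.1 CPM, 57.4 ± 22.6 in cluster 0), Lgals3 (306 ± 151 CPM, 34.8 ± 14.8 in cluster 0) and Gpnmb (12.2 ± 7.95 CPM). Cd9 was lowest there as well (1217 ± 530 CPM). Without this cluster, an alternative added after seeing the data, all 10 genes stayed higher in Arpc4ΔCx3cr1 microglia, with Igf1 at a log2 fold change of 4.34 and Lgals3 at 2.21. Cluster 8, led by hemoglobin and interferon-induced genes such as Cxcl10, came second for Ch25h (146 ± 56.0 CPM). Cluster 5 came to 96.4% from Arpc4ΔCx3cr1 mouse 1 (1440 cells) and was led by Xist and Fn1. Its mean levels give equal weight to 3 mice, although mouse 2 had 11 and mouse 4 had 32 cells there.

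**Figure D5:**
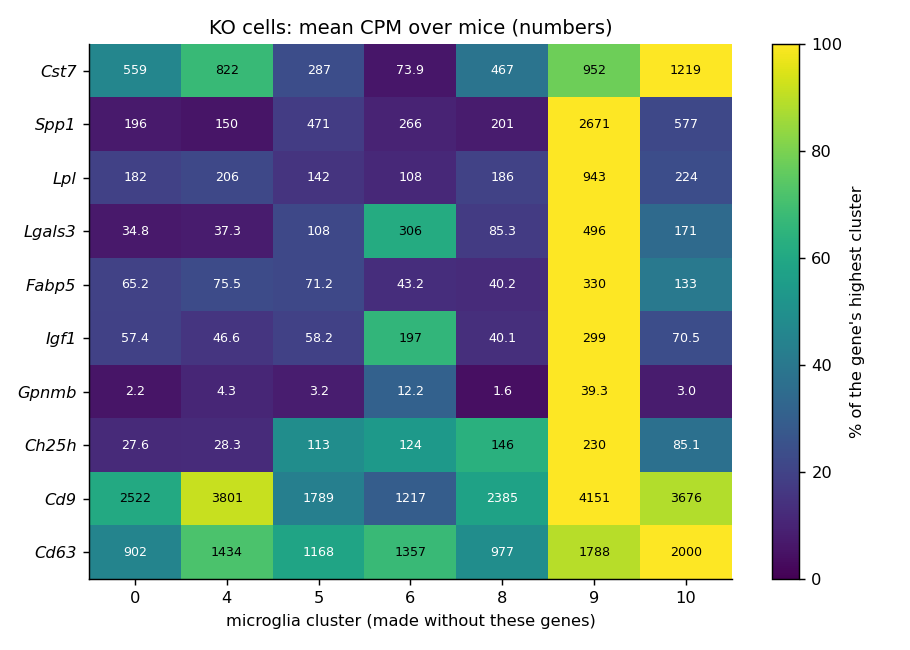
Mean CPM of each gene over Arpc4ΔCx3cr1 (KO) mice (numbers), in the 7 clusters that hold at least 10 cells of each of at least 3 of them. The color gives the level as a percent of the highest cluster of that gene. Cluster 9 is brightest for 8 genes, cluster 10 for Cst7 and Cd63, and cluster 6 is dark for Cst7 and bright for Lgals3 and Igf1.

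The few control cells that fell into clusters of Arpc4ΔCx3cr1 cells also held more of these transcripts. In cluster 0 they had 216 ± 82.8 CPM of Cst7, 119 ± 26.6 of Lpl, 54.5 ± 32.9 of Spp1 and 50.7 ± 34.8 of Igf1 (SD, n = 4 mice each), against 15.7 ± 3.50, 17.6 ± 2.20, 7.57 ± 0.454 and 2.15 ± 1.03 CPM in cluster 1. These cells numbered 16 to 35 per mouse, and the part of cells assigned to the wrong mouse by their tags was not tested. In cluster 9 control cells had 359 ± 162 CPM of Lpl and 301 ± 212 of Lgals3, and 14.6 ± 10.1 of Igf1, where the Arpc4ΔCx3cr1 cells of that cluster had 299 CPM. For Ch25h the values there were 6.07 ± 8.27 and 230 ± 63.0 CPM. Clusters were chosen from other genes of the same cells, so these values are a description.

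Across the other cell types, which are described by CPM scaled by the total alone, Lgals3 had 1121 ± 179 CPM in monocyte-like cells of control and 826 ± 194 CPM in those of Arpc4ΔCx3cr1 mice (SD, n = 4 each), far above microglia-like cells of either genotype (22.2 ± 22.6 and 94.7 ± 24.9 CPM). Granulocyte-like cells, measured in 1 mouse per genotype, had 636 and 833 CPM. Igf1 was highest in CAM-like cells, with 216 ± 24.5 CPM in control mice, above every mouse of either genotype in microglia (at most 107 CPM). In T cell-like cells Cst7 had 112 ± 20 CPM in control and 271 ± 116 CPM in Arpc4ΔCx3cr1 mice, and the latter overlapped with microglia-like cells of Arpc4ΔCx3cr1 mice (531 ± 258 CPM). Cd9 was highest in microglia-like cells among these types, with 1414 ± 33.9 CPM in control, 435 ± 93.9 CPM in CAM-like and 547 ± 97.2 CPM in monocyte-like cells.

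Cx3cr1-driven Cre is active in CAMs too, so the same comparison was made in the 289 control and 123 Arpc4ΔCx3cr1 CAM-like cells. These cells were named at clustering resolution 0.8. With clusters at resolution 0.4, the cluster named CAM held 1627 cells, 1308 of them from Arpc4ΔCx3cr1 mice. Its leading genes included Hbb-bs, Pf4, Mrc1 and Ms4a7. Neither this comparison nor the difference from microglia below was made with that larger class. Arpc4 itself had 224 ± 33.8 CPM in control and 269 ± 34.9 CPM in Arpc4ΔCx3cr1 CAM-like cells (SD, n = 4 each, log2 fold change 0.27, SE 0.21, edgeR adjusted p = 0.701), so a fall of the transcript as in microglia was not seen there. The counts come from the 3′ end and do not measure the deletion. Only 5 of the 10 genes, Lpl, Lgals3, Igf1, Cd9 and Cd63, passed the filter on low counts, and 0 of them passed the threshold, next to 0.577% higher and 0.461% lower among the 3468 genes tested. At an unadjusted p under 0.05, 371 genes (10.7%) passed, of the 5 Lgals3 only, and edgeR's newer quasi-likelihood method gave 0 of the 5 as well. Lgals3 had 181, 65.9, 49.9 and 58.4 CPM in the control and 431, 152, 136 and 41.7 CPM in the Arpc4ΔCx3cr1 mice, with overlapping groups (log2 fold change 1.25, SE 0.47, adjusted p = 0.265). Igf1 had 252 ± 33.4 CPM in control and 236 ± 154 CPM in Arpc4ΔCx3cr1 mice (SD, n = 4 each, log2 fold change -0.13, SE 0.31, adjusted p = 0.920). The Arpc4ΔCx3cr1 mice had 20 to 45 CAM-like cells each. Without the filter on low counts Cst7 (1.64, adjusted p = 0.0146), Spp1 (1.17, adjusted p = 0.00461) and Lgals3 (1.14, adjusted p = 0.00693) passed, and without Arpc4ΔCx3cr1 mouse 4 Cst7 (2.14, adjusted p = 0.0125) and Lgals3 (1.58, adjusted p = 0.0394) did.

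The difference of the genotype effect between CAM-like and microglia-like cells was then tested directly, with both sums of a mouse in 1 fit. It passed the threshold for 9 of the 10 genes, all with the lower log2 fold change in CAM-like cells. Of the 11829 genes tested 6.33% passed, 627 with the lower and 122 with the higher log2 fold change in CAM-like cells. The median difference of all genes tested was -0.19. Cst7, Spp1, Fabp5 and Ch25h did not pass the filter on low counts in CAM-like cells. They entered this fit through their microglia-like counts, so they add no support to the count of 9. Their CAM-like UMIs ranged from 13 (Ch25h) to 82 (Spp1) in control and from 18 to 85 in Arpc4ΔCx3cr1 mice. Igf1 differed most among the 9, by -4.57 on the log2 scale (95% interval -5.08 to -4.06, edgeR adjusted p = 2.24e-64). It was the gene with a high level in control CAM-like cells and almost none in control microglia. Spp1 differed by -3.53 (adjusted p = 2.56e-25), Lpl by -3.39 (2.14e-22), Ch25h by -2.97 (1.91e-04), Cst7 by -2.51 (1.21e-06), Fabp5 by -2.50 (6.67e-05), Lgals3 by -1.36 (2.31e-04), Cd63 by -1.27 (8.99e-07) and Cd9 by -0.89 (0.00748). Gpnmb, with 1 UMI in all CAM-like cells, could not be judged (-8.85, SE 5.30, adjusted p = 0.441). Here too edgeR took 1 spread for all genes. With its newer method, tried after seeing the data, 8 genes passed, among them Igf1 (adjusted p = 1.62e-12), Cst7 (0.00767) and Lgals3 (0.0168), and Cd9 did not (0.149). Cd9 was also lost without control mouse 1, control mouse 2 or Arpc4ΔCx3cr1 mouse 4 (-0.38, adjusted p = 0.455). Without control mouse 1 the difference of Spp1 was -2.02, without Arpc4ΔCx3cr1 mouse 1 it was -4.40, and without Arpc4ΔCx3cr1 mouse 4 that of Lpl was -2.73. P2ry12, a microglia marker, had 759 ± 77.6 CPM in control and 368 ± 105 CPM in Arpc4ΔCx3cr1 CAM-like cells (log2 fold change -1.07, adjusted p = 0.0223), and the part of microglial RNA in these sums was not tested.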

How the data were processed

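Brain CD45+ cells of 8 mice were tagged per mouse and sequenced as 1 pooled 3′ library. The deposited count tables hold UMI counts per gene and cell, made by the authors with Cell Ranger on mm10 (version 6.1.2 in the submitters' processing notes, 7.1.0 in the file headers), with mice separated by tag. Cells with fewer than 200 genes or over 20% mitochondrial UMIs were removed, which left 19863 of 19864. Cells were clustered with Seurat 5.3.0 (20 principal components, 10000 variable genes, resolution 0.8) and named from marker lists; 1733 cells stayed unnamed. No doublet caller was run, and the comparison was repeated without the cells of highest UMIs. Microglia-like cells were clustered again without 30 genes, the effector genes among them. Counts were summed per mouse (at least 10 cells) and tested with edgeR 4.0.16 (glmQLFit and glmQLFTest, filterByExpr, TMM) in R 4.3.3, with Benjamini-Hochberg adjustment over all genes tested and a threshold of 0.05. Each mouse gave 5251527 to 12878691 UMIs on genes, and scripts were tested on simulated data. DESeq2 1.42.0, other scalings and filters, other depths and leaving out each mouse were alternatives.

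The effector genes and all lists were chosen with earlier results of these data known. Beside the effector genes, the 2 largest rises and 2 largest falls past the threshold were named from each list, and for each effector gene the 3 most correlated genes detected in at least 5% of cells. Exceptions are stated where they occur, and 1 gene that this rule names is not reported here.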

Additional observations from a re-analysis of the deposited data

Results flagged for a closer look

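In 5 of 40 groups of 4 mice tested, 1 mouse stood apart from the other 3 by Dixon's criterion, which chance alone meets in about 1 in 20 groups. Control mouse 2 was low for Cst7 (20.6 CPM) and control mouse 1 high for Lgals3 (54.8 CPM). Arpc4ΔCx3cr1 mouse 1, the mouse with high Xist, was high for Spp1 (951 CPM) and low for Cd9, both in its level (1234 CPM) and in its share of positive cells (76.8%).

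The genotype effect differed between CAM-like and microglia-like cells in the edgeR fit for 9 genes, by a log2 fold change in CAM-like minus microglia-like cells of -2.51 for Cst7, -3.53 for Spp1, -3.39 for Lpl, -1.36 for Lgals3, -2.50 for Fabp5, -4.57 for Igf1, -2.97 for Ch25h, -0.89 for Cd9 and -1.27 for Cd63. Cst7, Spp1, Fabp5 and Ch25h did not pass the filter on low counts in CAM-like cells and add no support to this count. Arpc4 itself was not lower in Arpc4ΔCx3cr1 CAM-like cells, and its part in these differences was not tested. The effect of a Cst7 UMI on Cd9 was larger in Arpc4ΔCx3cr1 than in control mice by 0.25.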

How the results depend on the processing

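Over 22 alternatives the 10 effector genes gave 220 log2 fold changes in microglia, of which 219 kept their direction and their side of the threshold. Lgals3 over every cell that passed the filters missed the threshold (1.17). Without Arpc4ΔCx3cr1 mouse 1 the log2 fold changes of Cst7, Lpl and Cd63 were 4.53, 3.25 and 1.37. Cells without the hemoglobin cluster, cells with the unnamed cluster led by Negr1 and Mrc1, a free RNA share of 20% and edgeR's newer method were alternatives chosen after seeing the data. Leaving out 1 mouse gave 0 to 2 effector genes called in CAM-like cells and 0 to 1 for the difference of the Cst7 effect between genotypes; no filter on low counts gave 3 in CAM-like cells. Within control mice, 1000 UMIs per cell gave 0 and no thinning 7, the difference between genotypes gave 3 without thinning, and the variance ratio of Arpc4ΔCx3cr1 mice fell to 1.40 with 1000 UMIs. Over all genes, the 36 calls in CAM-like cells became 23 when scaled by the total alone, 127 without the filter and 12 to 64 without 1 mouse; the Cst7 split went within control mice from 138 to 77 (1000 UMIs), 579 (not thinned) and 71 to 138 without 1 mouse, within Arpc4ΔCx3cr1 mice from 1069 to 501 (1000 UMIs) and 665 to 1106 without 1 mouse, and between genotypes from 126 to 496 (not thinned) and 67 to 125 without 1 mouse.

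Leaving out 1 mouse changed the sign of effects that were not past the threshold. Igf1 and Cd9 in CAM-like cells ranged from -0.66 to 0.17 and -0.14 to 0.54. For the Cst7 split within control mice, Fabp5, Igf1 and Ch25h ranged from -0.66 to 1.79, -0.46 to 1.01 and -0.16 to 1.13, and within Arpc4ΔCx3cr1 mice Igf1 from -0.07 to 0.22. For the difference between genotypes the ranges were -1.02 to 0.17 for Spp1, -0.33 to 0.48 for Lpl, -0.18 to 2.27 for Fabp5, -0.90 to 0.57 for Igf1 and -0.79 to 0.50 for Ch25h. With 1000 UMIs, Igf1 was -4.53 and the otherwise called Cd9 -0.01 within control mice, and the difference between genotypes was 0.89 for Spp1, -0.98 for Fabp5 and 4.74 for Igf1. Without thinning, Gpnmb was 1.42 within control mice, and the difference was -0.44 for Lpl, -0.51 for Fabp5 and -0.91 for Gpnmb. Scaled by the total alone, the difference for Lpl was -0.07. The cause was not tested. With mice of the same number as a replicate block, 10 effector genes were called in microglia (Spp1 4.40); the deviations of same-numbered mice correlated at -0.09 to 0.02 over 5383 genes, so the numbers do not pair the mice. Depth limits Gpnmb most, and in CAM-like cells 5 of the 10 genes could not be tested with the filter.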

Other observations

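Apoe, the apolipoprotein gene of the DAM program, was named here after its values were seen. Within control mice it had 2637 ± 671 CPM in cells with and 1274 ± 230 CPM in cells without a Cst7 UMI (SD, n = 4 mice each), higher in 4 of 4 mice (log2 fold change 1.04, SE 0.06, edgeR adjusted p = 6.52e-75). Within Arpc4ΔCx3cr1 mice it was lower in cells with Cst7 (-0.41, SE 0.04), and the difference between the genotypes was -1.45 (SE 0.07, adjusted p = 8.16e-103). These edgeR p-values rest on 1 spread common to all genes. The control cells with a Cst7 UMI numbered 50 to 96 per mouse. With 10% of each sum subtracted as free RNA, Cst7 was at 0 in all 4 control mice. The part of free RNA and of cells assigned to the wrong mouse in these Apoe values was not tested. Over all microglia-like cells Apoe rose from 1437 ± 274 to 17358 ± 9171 CPM, with mouse 1 highest at 30974 CPM. P2ry12 was lower in control cells with Cst7 in all 4 mice (2265 ± 182 and 2715 ± 119 CPM, log2 fold change -0.26, SE 0.05).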
